A study of Mus musculus with 6 samples.

Results

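The 10 genes described here encode parts of the cyclic AMP (cAMP) pathway that runs from the stimulatory G protein to protein kinase A (PKA). They are Gnas, Adcy6, Adcy7, Adcy9, Prkaca, Prkacb, Prkar1a, Prkar2a, Crem and Sik1. They were chosen by name, with earlier results of these data known, and all 10 were present among the 24493 genes measured. RNA sequencing covered 6 libraries of KPCY cells, C57BL/6 mouse pancreatic tumour cells. In general, KPCY tumours carry alleles switched on by Cre and a yellow fluorescent reporter; the labels spell out neither the alleles nor the promoter behind Cre. Pthlh hairpin 1 (n = 2), Pthlh hairpin 2 (n = 2) or the non-targeting hairpin shNT (n = 2) had been introduced by transduction. By their condition label the cells came from tumours in mice and were sorted, yet the growth protocol names culture in DMEM. The design text mentions 2 parental clones, and no label assigns a library to a clone, so clone and hairpin cannot be told apart. Age, sex and the number of animals are not given. Nothing in the labels says that replicates were grown or harvested apart, so each p-value speaks only for the spread among these libraries, which may be technical.

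Values are in TPM, an abundance per transcript length scaled to a total of 1000000 in each library. TPM keeps no record of depth, which is therefore unknown. Pthlh, the targeted gene, had 0 and 0.106 TPM with hairpin 1, 0.0423 and 0.263 TPM with hairpin 2, and 0.752 and 0.966 TPM in shNT. Every hairpin library was below both shNT libraries. Pth1r, the receptor through which the Pthlh product acts on Gs, reached at most 0.105 TPM in any library, and Pth2r at most 0.0613 TPM. The Mir6236 entry, a short precursor, took between 19.7% and 34.1% of all TPM. Its share was 20.4% and 19.7% with hairpin 1, 23.4% and 21.4% with hairpin 2, and 34.1% and 24.3% in shNT. Both shNT libraries thus had a larger share than any hairpin library. The median of all tested genes was shifted by 0.11 with hairpin 1 and by 0.09 with hairpin 2 relative to shNT on the log2(TPM + 1) scale. Epithelial markers summed to 4073 to 4130 TPM with hairpin 1, 3369 to 3459 TPM with hairpin 2 and 3613 to 3753 TPM in shNT, although Epcam, a defining marker, did not pass 0.605 TPM. Marker sums stayed at or below 2.61 TPM for myeloid cells, with Adgre1 listed at 0, and at or below 1.72 TPM for lymphocytes, with Cd3e and Nkg7 listed at 0. They stayed at or below 0.511 TPM for fibroblasts, with Lum listed at 0, 0.119 TPM for endothelium, with Emcn listed at 0, and 0.0301 TPM for islet cells, with Ins1, Ins2, Gcg and Sst listed at 0. Acinar markers summed to 11.8 to 20.1 TPM, nearly all from Cela1, with Cpa1, Amy2a5 and Pnlip listed at 0. In these bulk libraries, fewer cells of a type and less RNA per cell cannot be told apart.

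Receptors coupled to Gs act by loading its alpha subunit, the product of Gnas, with GTP, and the loaded subunit switches on adenylyl cyclases that make cAMP from ATP. In the resting PKA holoenzyme a dimer of regulatory subunits holds a pair of catalytic subunits inactive; cAMP binds the regulatory subunits and frees the catalytic ones, which phosphorylate targets that include the transcription factor CREB. Crem and Sik1 lie at the transcriptional end: CREM proteins bind the same DNA element as CREB, some isoforms as repressors, and SIK1 is a kinase that keeps CRTC coactivators out of the nucleus. Activating GNAS mutations are known in human cystic precursors of pancreatic cancer. PTHrP, encoded by Pthlh, signals through Gs by way of Pth1r.

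CREB recognises the cAMP response element TGACGTCA and its core TGACG, so the promoters of the genes were searched for both on both strands; every full site also contains the core. RefSeq promoter windows of 300 bases, from 250 bases before the start to 50 after it, were matched for 7 of the 10 genes and gave 20 windows (GRCm38.p6). Adcy6, Crem and Sik1 had no entry. The core stood in 11 of the 20 windows, against 20.8% of all 32851 promoter windows. Windows of the same gene can overlap and share a site, so the 11 windows do not hold 11 separate sites, and enrichment was not tested. Each of the 7 genes had the core in at least 1 window. A gene with more windows has more chances to hold it, and no share per gene was counted. The full site stood in 2 windows of Prkar1a, which overlap and hold the same copy, against 1.79% of all windows. The 3 upstream sequences below, each the 250 bases before a start on the plus strand, are shown because they belong to genes with a called or nearly level transcript: Prkaca and Gnas passed the test with hairpin 1, and Prkar1a carries the full site. Capitals mark the full site or the core, which reads CGTCA where it lies on the other strand, and a match is a description of the letters and not of binding.
Prkaca promoter at chr8:83972728-83972977 (cores starting 120 and 6 bases before the start): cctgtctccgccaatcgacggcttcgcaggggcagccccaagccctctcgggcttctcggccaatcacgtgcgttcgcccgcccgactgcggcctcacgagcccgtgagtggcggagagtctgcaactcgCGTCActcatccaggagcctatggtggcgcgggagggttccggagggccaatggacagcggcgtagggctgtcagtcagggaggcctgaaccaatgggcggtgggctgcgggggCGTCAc
Gnas promoter at chr2:174329756-174330005 (core starting 216 bases before the start): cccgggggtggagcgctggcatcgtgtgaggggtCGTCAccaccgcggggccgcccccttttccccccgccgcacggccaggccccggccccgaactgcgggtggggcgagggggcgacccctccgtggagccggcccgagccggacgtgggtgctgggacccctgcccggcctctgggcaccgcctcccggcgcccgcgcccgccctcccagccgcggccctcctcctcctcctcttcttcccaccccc
Prkar1a promoter at chr11:109650699-109650948 (full site starting 49 bases before the start): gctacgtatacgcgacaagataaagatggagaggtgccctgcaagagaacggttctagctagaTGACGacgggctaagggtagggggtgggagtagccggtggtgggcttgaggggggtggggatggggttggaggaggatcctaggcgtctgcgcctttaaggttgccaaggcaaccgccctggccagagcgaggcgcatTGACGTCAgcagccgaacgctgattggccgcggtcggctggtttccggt

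Levels of the 10 genes spanned several orders of magnitude, and TPM allows them to be ordered per transcript length. Averaged over the 6 libraries, Gnas stood first at 490.7 TPM, followed by Prkaca at 127 TPM and Prkar1a at 90.8 TPM. Adcy6 at 41.5 TPM, Prkacb at 39.3 TPM and Prkar2a at 35.7 TPM came next, and their library ranges overlapped between neighbours. Sik1 averaged 11.6 TPM, Crem 2.58 TPM, Adcy9 1.61 TPM and Adcy7 0.244 TPM. Adcy7 did not reach 1 TPM in any library and was not tested, which left 9 of the 10 genes. The Gnas and Crem rows sum all transcripts of complex loci. Gnas also overlaps the antisense gene Nespas, at a mean of 0.629 TPM, and Crem overlaps Gm6225, at 1.1 TPM, and the strandedness of the libraries is not given, so reads of these pairs may not have been separated.

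**Figure D1:**
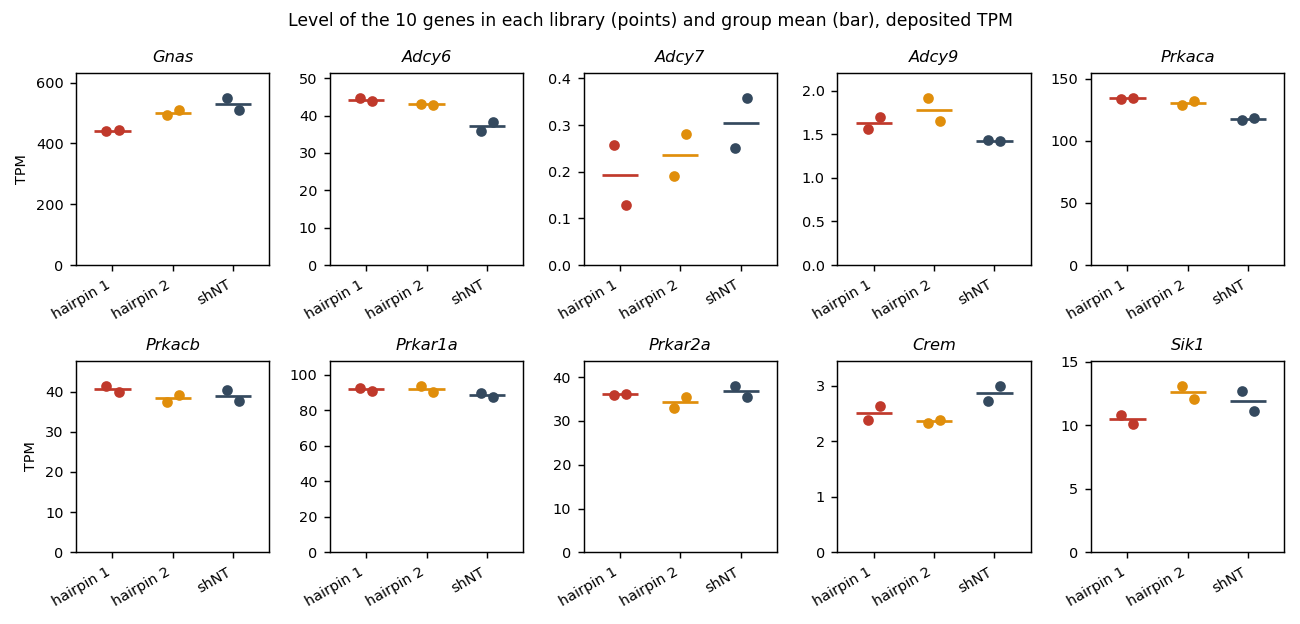
TPM of each of the 10 genes (y axis, linear from 0) in the 2 libraries of hairpin 1, hairpin 2 and shNT; points are libraries and bars are group means. Gnas was lowest with hairpin 1, Adcy6 and Prkaca were higher in all hairpin libraries than in either shNT library, and Prkacb, Prkar1a and Prkar2a lay close together in all groups.

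With hairpin 1, Gnas fell and Adcy6 and Prkaca rose relative to shNT, each by less than 0.3 on the log2 scale, and the other 6 tested genes missed the threshold. Differences were tested with limma on log2(TPM + 1), a scale that understates changes of weakly expressed genes, and called at a Benjamini-Hochberg adjusted p below 0.05 over all 11549 genes tested. These 3 calls among 9 genes stood against 50.2% of all tested genes called in the same comparison, 32.1% higher and 18.1% lower. The libraries did not overlap between hairpin 1 and shNT for 7 of the 9 genes, against 76.8% of all tested genes, and between hairpin 2 and shNT for 6, against 61.8%. For single genes it is also stated where every hairpin library lay on 1 side of both shNT libraries. The share of all tested genes that separate in that way is not given, so such statements only describe the values. The median difference of the 9 genes was 0.05, against 0.11 for all genes. The share called among the 9 genes was not tested against the share over all genes. With hairpin 2, limma called 0 of the 9 genes, against 9.63% of all tested genes (6.62% higher and 3% lower), while 2 had an unadjusted p below 0.05. For the mean of both hairpins against shNT, the count was 2 higher and 1 lower, against 39.4% of all tested genes, 27.3% higher and 12.1% lower. Between hairpin 2 and hairpin 1 limma called 0 of the 9 genes, against 40.1% of all tested genes, with 2 at an unadjusted p below 0.05. The share of all tested genes at an unadjusted p below 0.05 was not counted, so the unadjusted counts cannot be weighed. Both hairpins were set against the same 2 shNT libraries, so their differences from shNT share those libraries.

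**Figure D2:**
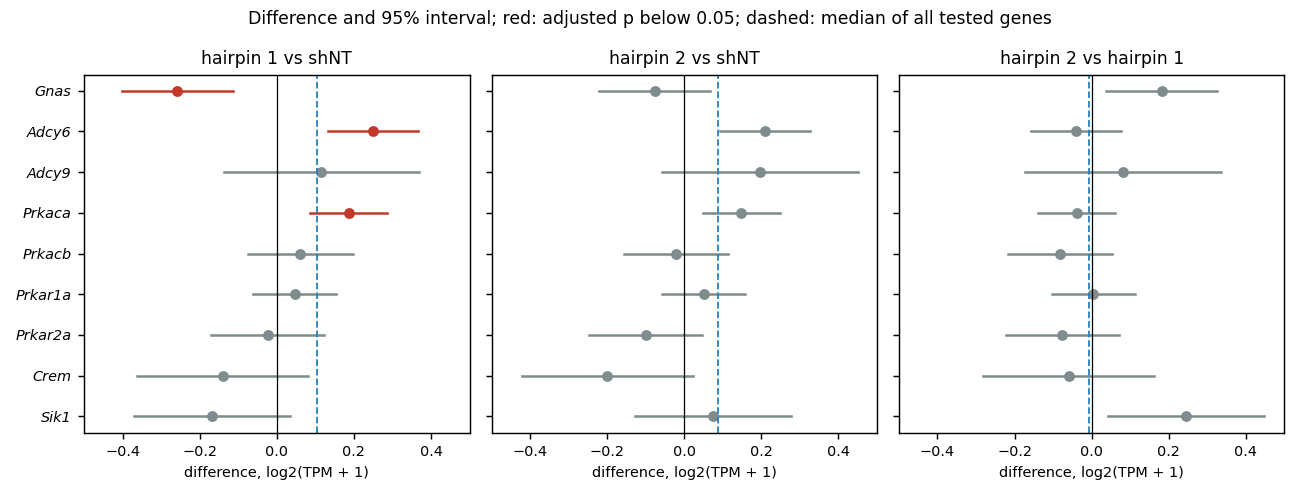
Difference on the log2(TPM + 1) scale (x axis) for the 9 tested genes in hairpin 1 vs shNT, hairpin 2 vs shNT and hairpin 2 vs hairpin 1; points are limma estimates, horizontal lines 95% intervals, red marks an adjusted p below 0.05 and the dashed line is the median of all tested genes. Gnas at -0.26, Adcy6 at 0.25 and Prkaca at 0.19 in the hairpin 1 panel are the called differences.

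Gnas (chromosome 2, 174284320 to 174346744, plus strand, mm10) encodes the Gs alpha subunit. It had 440.2 and 443 TPM with hairpin 1, 494 and 509 TPM with hairpin 2, and 549 and 509 TPM in shNT. Both hairpin 1 libraries lay below all others, while the higher hairpin 2 library was level with the lower shNT library. With hairpin 1 Gnas fell by 0.26 ± 0.06 (log2, SE), at a limma adjusted p = 0.0145, to 83.5% of the shNT mean. With hairpin 2 the difference was -0.08 (95% interval -0.22 to 0.07), limma adjusted p = 0.395, at 94.8% of the shNT mean. Hairpin 2 was higher than hairpin 1 by 0.18 (95% interval 0.04 to 0.33), limma adjusted p = 0.0548, and was not called. Leaving out replicate 1 or replicate 2 of hairpin 1 ended the hairpin 1 call (limma adjusted p = 0.0935 and 0.0857), and over its 17 alternatives the adjusted p ranged from 0.00186 to 0.832. For the mean of both hairpins the difference was -0.17, limma adjusted p = 0.0458, which left the threshold when replicate 1 of shNT (0.0523), replicate 1 (0.140) or 2 (0.132) of hairpin 1, or replicate 1 (0.143) or 2 (0.114) of hairpin 2 was left out, in a range of 0.00620 to 0.669.

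Chromosome 2 as a whole was lower with hairpin 1. The median difference of the 909 other tested genes of chromosome 2 was -0.27 with hairpin 1 and 0.01 with hairpin 2 on the log2 scale, and 52.1% of them had a lower difference than Gnas with hairpin 1. The 36 tested genes starting within 5 Mb of Gnas had a median of -0.32 with hairpin 1. After each chromosome was centred on its own median, the Gnas difference with hairpin 1 was 0.018, limma adjusted p = 0.832, so its direction turned. With hairpin 1 Gnas was no lower than the middle of its own chromosome. Sik1, Crem and Adcy9 differed in sign from the medians of theirs. Sik1 differed by -0.17 with hairpin 1 where the 596 other genes of chromosome 17 had a median of 0.20, and 13.1% of them were lower. Crem differed by -0.14 with hairpin 1 and -0.20 with hairpin 2, against medians of 0.14 and 0.09 for the 286 other genes of chromosome 18, of which 18.5% and 8.04% were lower. Adcy9 differed by 0.12 with hairpin 1 where the 352 other genes of chromosome 16 had a median of -0.21.

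**Figure D3:**
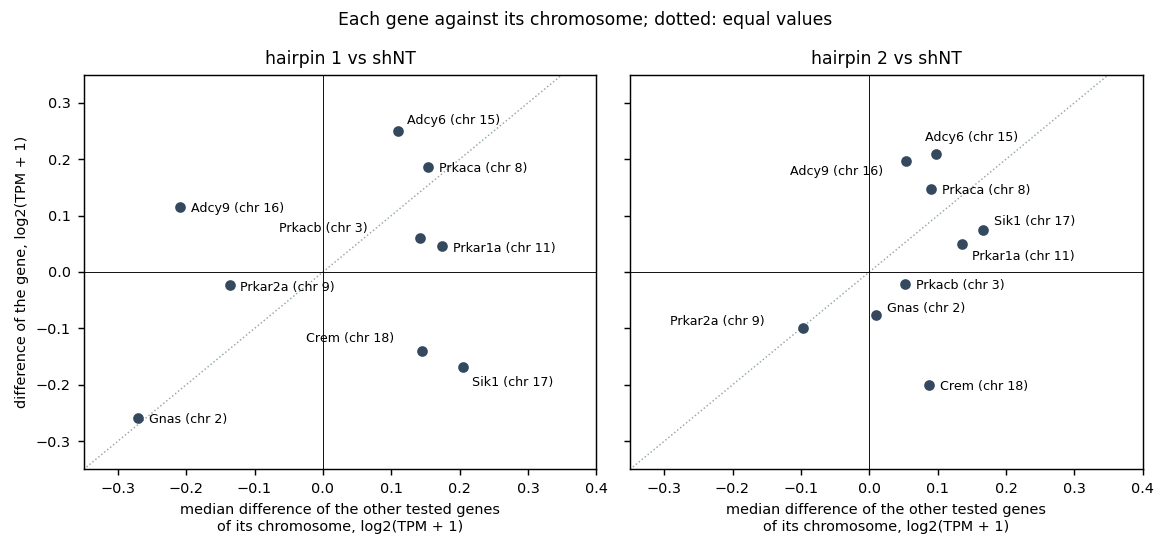
Difference of each tested gene from shNT (y axis) against the median difference of the other tested genes of its chromosome (x axis), both on the log2(TPM + 1) scale, for hairpin 1 and hairpin 2; the dotted line marks equal values. With hairpin 1 Gnas at -0.26 sits beside its chromosome's median of -0.27, while Sik1 and Crem lie far below the line and Adcy9 above it.

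Among the cyclases, Adcy6 supplied nearly all of the transcript. Adcy6 (chromosome 15, 98589973 to 98610076, minus strand, mm10) encodes a cyclase that is known to be inhibited by calcium and by Gi. It had 44.6 and 43.9 TPM with hairpin 1, 43.2 and 42.9 TPM with hairpin 2, and 36.0 and 38.2 TPM in shNT. All 4 hairpin libraries were above both shNT libraries. Its share of the summed TPM of 9 cyclase genes was 95.2% ± 0.134 with hairpin 1, 94.3% ± 0.468 with hairpin 2 and 94.9% ± 0.448 in shNT (SD, n = 2 each). With hairpin 1 Adcy6 rose by 0.25 ± 0.05 (log2, SE), limma adjusted p = 0.00770. With hairpin 2 the difference was 0.21 ± 0.05, limma adjusted p = 0.0508, just outside the threshold. Hairpin 2 minus hairpin 1 was -0.04 (95% interval -0.16 to 0.08), limma adjusted p = 0.535. For the mean of both hairpins Adcy6 rose by 0.23, limma adjusted p = 0.00999. The hairpin 1 call did not survive the omission of replicate 1 of hairpin 1 (limma adjusted p = 0.0544) or chromosome centring (0.14, limma adjusted p = 0.0575), and over 17 alternatives its adjusted p ranged from 0.00399 to 0.537. The hairpin 2 difference passed without shNT replicate 2 (limma adjusted p = 0.0170), in a range of 0.0170 to 0.693.

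Adcy9 and Adcy7 were scarce. Adcy9, a widely expressed cyclase, had 1.56 and 1.69 TPM with hairpin 1, 1.91 and 1.65 TPM with hairpin 2, and 1.43 and 1.42 TPM in shNT. Its hairpin libraries were all above shNT, yet neither difference was called (0.12 with hairpin 1, limma adjusted p = 0.381; 0.20 with hairpin 2, limma adjusted p = 0.238). After chromosome centring Adcy9 was called with hairpin 1, at 0.34 (limma adjusted p = 0.0472, the lowest of 16 alternatives, which reached 0.975). Adcy7, a cyclase typical of blood cells, had 0.257 and 0.128 TPM with hairpin 1, 0.191 and 0.281 TPM with hairpin 2, and 0.252 and 0.357 TPM in shNT, and the groups overlapped. The ratio of Gnas to Adcy6 TPM was 9.99 ± 0.170 with hairpin 1, 11.7 ± 0.308 with hairpin 2 and 14.3 ± 1.37 in shNT (SD, n = 2 each). The groups did not overlap. Gnas was called lower and Adcy6 higher with hairpin 1 in these same libraries, so that is no separate result. How often ratios of other gene pairs separate was not counted. Scaling a whole library leaves the ratio unchanged, but chromosome centring, which took the Gnas difference with hairpin 1 to 0.018, does not.

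Of the PKA catalytic subunits, Prkaca rose with hairpin 1 and Prkacb was not called. Prkaca (chromosome 8, 83972993 to 83996443, plus strand, mm10) encodes the alpha catalytic subunit. It had 134 and 134 TPM with hairpin 1, 129 and 132 TPM with hairpin 2, and 117 and 118 TPM in shNT. All hairpin libraries exceeded both shNT libraries by more than the spread within any group. With hairpin 1 Prkaca rose by 0.19 ± 0.04 (log2, SE), limma adjusted p = 0.0124. The hairpin 2 difference of Prkaca was 0.15 ± 0.04, limma adjusted p = 0.0738. For the mean of both hairpins Prkaca rose by 0.17, limma adjusted p = 0.0160.

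The Prkaca calls depended on scaling and on single libraries. The hairpin 1 difference of Prkaca was 0.10 under median-ratio scaling (limma adjusted p = 0.0936), and after chromosome centring it was 0.04, limma adjusted p = 0.477. The median gene of chromosome 8 stood at 0.15 with hairpin 1. Leaving out replicate 1 or replicate 2 of hairpin 1 ended the Prkaca call with hairpin 1 (limma adjusted p = 0.0728 and 0.0764), and its range over 17 alternatives was 0.00916 to 0.945. The call for both hairpins ended when replicate 1 (limma adjusted p = 0.0605) or 2 (0.0621) of hairpin 1, or replicate 1 (0.0538) or 2 (0.0688) of hairpin 2 was left out, in a range of 0.0134 to 0.926. With hairpin 2 Prkaca passed without shNT replicate 2 (limma adjusted p = 0.0395), in a range of 0.0395 to 0.949.

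Prkacb encodes the beta catalytic subunit and lies on chromosome 3. It had 41.5 and 39.9 TPM with hairpin 1, 37.5 and 39.2 TPM with hairpin 2, and 40.3 and 37.6 TPM in shNT. The shNT libraries overlapped with those of both hairpins. The difference was 0.06 with hairpin 1 (95% interval -0.07 to 0.20; limma adjusted p = 0.386) and -0.02 with hairpin 2 (95% interval -0.16 to 0.11; limma adjusted p = 0.814). As a share of the TPM of both catalytic genes, Prkacb made up 23.7% and 22.9% with hairpin 1, 22.5% and 22.9% with hairpin 2, and 25.6% and 24.1% in shNT. Every hairpin library had a lower share than either shNT library. How often shares of other gene pairs separate in this way was not counted. The mean of both hairpins was 1.87 percentage points below shNT (-1.87), or between -2.63 and -1.12 with each library left out in turn.

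The regulatory subunit genes among the 10 were nearly level. Prkar1a on chromosome 11 encodes the type I alpha subunit, whose loss causes Carney complex in humans. It had 92.3 and 91.0 TPM with hairpin 1, 93.8 and 90.1 TPM with hairpin 2, and 89.9 and 87.6 TPM in shNT. All hairpin libraries were above shNT, but by 0.05 with each hairpin on the log2 scale, within an interval of -0.06 to 0.15 for hairpin 1 (limma adjusted p = 0.413) and -0.06 to 0.16 for hairpin 2 (0.451). Prkar2a (chromosome 9) encodes the type II alpha subunit, which AKAP anchors tether in the cell. It had 36.0 and 36.2 TPM with hairpin 1, 32.9 and 35.5 TPM with hairpin 2, and 38.1 and 35.4 TPM in shNT, and the groups overlapped. Its difference was -0.02 with hairpin 1 (95% interval -0.17 to 0.12; limma adjusted p = 0.760) and -0.10 with hairpin 2 (95% interval -0.25 to 0.05; limma adjusted p = 0.287).

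Summed over subunits in deposited TPM, catalytic transcript was higher in the hairpin libraries than in shNT; without the small-RNA entries the hairpin 1 difference was 0.01 for Prkaca and -0.11 for Prkacb on the log2 scale. Prkaca and Prkacb together had 175 and 174 TPM with hairpin 1, 166 and 171 TPM with hairpin 2, and 157 and 156 TPM in shNT. The sum of Prkar1a and Prkar2a was 128 ± 0.747 TPM with hairpin 1, 126 ± 0.799 TPM with hairpin 2 and 125 ± 3.5 TPM in shNT (SD, n = 2 each). The ratio of catalytic to regulatory TPM over these 4 genes was 1.37 and 1.37 with hairpin 1, 1.31 and 1.36 with hairpin 2, and 1.23 and 1.27 in shNT. Such a ratio is the same under any scaling of whole libraries, but need not be after chromosome centring. With that centring the hairpin 1 differences were 0.04 for Prkaca, -0.07 for Prkacb, -0.13 for Prkar1a and 0.11 for Prkar2a (log2). In deposited TPM every hairpin library had a higher ratio than either shNT library. How often ratios of other genes separate in this way was not counted. With the other regulatory genes Prkar1b and Prkar2b included, the ratio was 1.14 ± 0.00126 with hairpin 1, 1.1 ± 0.0322 with hairpin 2 and 1.07 ± 0.0112 in shNT (SD, n = 2 each). Replicate 1 of hairpin 2, at 1.078, was then nearly level with replicate 2 of shNT, at 1.075. Among the regulatory genes, Prkar2b, which encodes the type II beta subunit, rose with both hairpins. Prkar2b had 25.4 and 25 TPM with hairpin 1, 27.4 and 26.8 TPM with hairpin 2, and 20.2 and 21.8 TPM in shNT.

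Prkar2b rose by 0.25 ± 0.05 (log2, SE) with hairpin 1, limma adjusted p = 0.0106. With hairpin 2 it rose by 0.36 ± 0.05, limma adjusted p = 0.0249. Under median-ratio scaling both calls held (limma adjusted p = 0.0365 and 0.0412), and neither held after chromosome centring (0.284 and 0.0624). The hairpin 1 call ended when replicate 1 or 2 of hairpin 1 was left out, at a limma adjusted p of up to 0.0650 and in a range of 0.00571 to 0.522 over all alternatives. The hairpin 2 call ended when replicate 1 or 2 of hairpin 1, or replicate 1 or 2 of hairpin 2, was left out, at up to 0.162 and in a range of 0.00767 to 0.215. As a share of the 4 regulatory genes, Prkar2b made up 16.4% ± 0.0860 with hairpin 1, 17.7% ± 0.136 with hairpin 2 and 14.3% ± 0.968 in shNT (SD, n = 2 each).

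**Figure D4:**
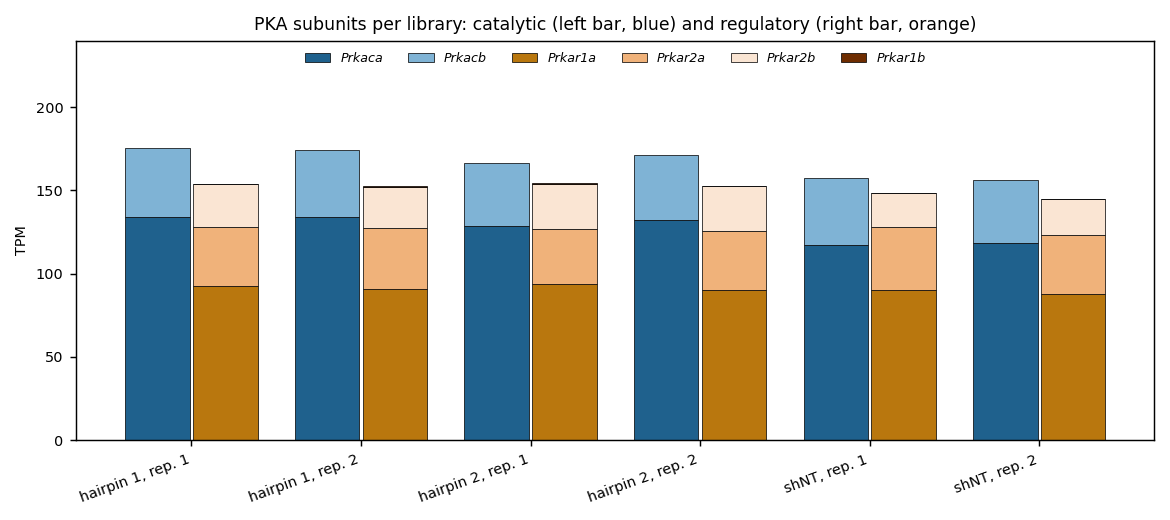
TPM of the PKA catalytic genes (left bar of each pair, stacked) and regulatory genes (right bar, stacked) in each library, with hairpin 1 and hairpin 2 left of shNT. The catalytic bars reach 166 to 175 TPM in the hairpin libraries and 156 to 157 TPM in shNT, and the Prkar2b segment is larger in the hairpin libraries.

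At the transcriptional end, neither Crem nor Sik1 passed the test. Crem (chromosome 18) had 2.38 and 2.64 TPM with hairpin 1, 2.34 and 2.39 TPM with hairpin 2, and 2.73 and 3.01 TPM in shNT. All 4 hairpin libraries were below both shNT libraries. Its difference was -0.14 ± 0.09 (log2, SE) with hairpin 1 (limma adjusted p = 0.235), -0.20 ± 0.09 with hairpin 2 (limma adjusted p = 0.185) and -0.17 ± 0.08 for both (limma adjusted p = 0.130). The row counts activator and repressor isoforms of Crem together. Sik1 (chromosome 17, 31844250 to 31855804, minus strand, mm10) had 10.8 and 10.1 TPM with hairpin 1, 13.1 and 12 TPM with hairpin 2, and 12.7 and 11.1 TPM in shNT. Hairpin 1 libraries were below all others, and hairpin 2 overlapped with shNT.

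Sik1 differed from shNT by -0.17 ± 0.08 (log2, SE) with hairpin 1, limma adjusted p = 0.134. Its hairpin 2 difference was 0.07 ± 0.08, limma adjusted p = 0.558. Hairpin 2 minus hairpin 1 was 0.24 (95% interval 0.04 to 0.45), limma adjusted p = 0.0616. The hairpin 1 difference of Sik1 passed the threshold after chromosome centring (-0.38, limma adjusted p = 0.0219), quantile normalization (-0.25, limma adjusted p = 0.0489) and without shNT replicate 2 (limma adjusted p = 0.0473), in a range of 0.0219 to 0.431. Between hairpins it passed without shNT replicate 1 (limma adjusted p = 0.0328), without shNT replicate 2 (0.0317), with only the groups compared (0.0332) and with a replicate block (0.0287), in a range of 0.0287 to 0.259. Gnas between hairpins passed without shNT replicate 1 (limma adjusted p = 0.00644), without shNT replicate 2 (0.00621) and with only the groups compared (0.00648), in a range of 0.00621 to 0.246. After chromosome centring its difference between hairpins turned to -0.10 (limma adjusted p = 0.245).

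Part of these calls changed with how the libraries were scaled. Median-ratio scaling, which sets the typical gene level between libraries, gave Gnas a difference of -0.35 with hairpin 1 (limma adjusted p = 0.00660) and Adcy6 one of 0.16 (limma adjusted p = 0.0278), while Prkaca missed the threshold. Under this scaling 1 gene was higher and 1 lower among the 9, against 47.1% of all tested genes, 24% higher and 23.2% lower. Without the small-RNA entries Gnas differed by -0.44 (limma adjusted p = 0.00511), Adcy6 by 0.07 (limma adjusted p = 0.537) and Prkaca by 0.01 (limma adjusted p = 0.945). The direction of Gnas, Adcy6, Adcy9, Prkaca, Crem and Sik1 with hairpin 1 was the same in deposited TPM and under these scalings and quantile normalization, whereas Prkacb and Prkar1a turned to negative differences; Prkar2a turned to a positive one (0.11) after chromosome centring.

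**Figure D5:**
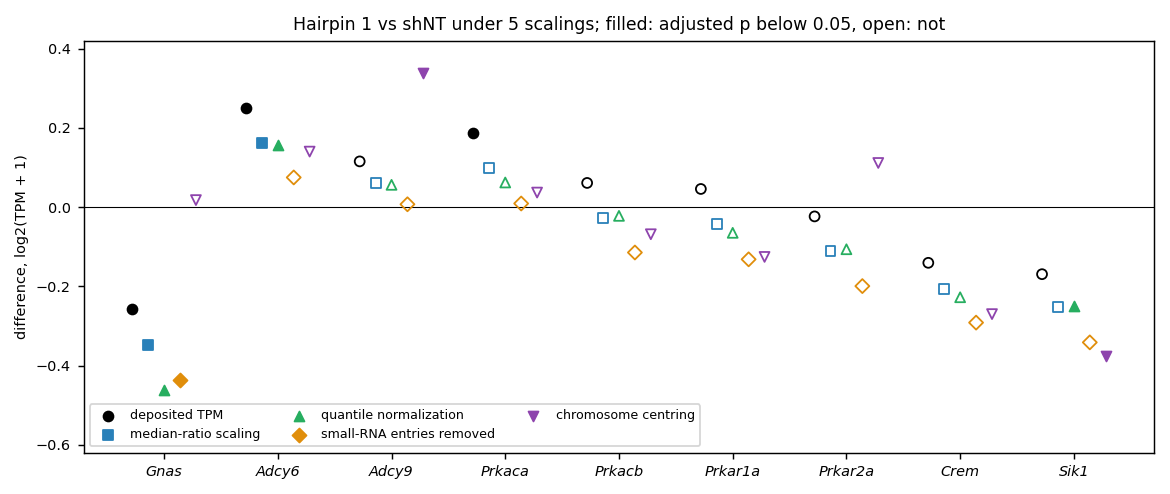
Difference between hairpin 1 and shNT (y axis, log2(TPM + 1)) for the 9 tested genes under deposited TPM and 4 other scalings; filled symbols mark a limma adjusted p below 0.05 and open symbols the rest. Gnas is near -0.26 to -0.46 except after chromosome centring at 0.018, and Adcy6 and Prkaca shrink towards 0 when small-RNA entries are removed.

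Genes around the 10 in the same pathway were taken from 9 lists of 122 genes, of which 62 could be tested. With hairpin 1, 19 rose and 8 fell (13 and 15 after median-ratio scaling), which is 27 of 62 against 50.2% of all tested genes. With hairpin 2, 4 rose and 2 fell, against 9.63% of all tested genes. The median difference of the 62 genes was 0.04 with hairpin 1 and 0.07 with hairpin 2. The hairpin 1 count was smaller when replicate 1 or 2 of hairpin 1 was left out, and so was the count over all tested genes. With hairpin 2 the calls among the 62 were lost when any 1 hairpin library was left out, and most calls over all tested genes were lost as well. The hairpin 2 count was smaller without shNT replicate 1 and larger without shNT replicate 2, both among the 62 and over all tested genes. In these comparisons the remaining library of a group is assumed to vary like the other groups.

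Upstream of Gnas, 3 of 23 Gs-coupled receptors could be tested and all 3 rose with hairpin 1, against 32.1% of all tested genes. Of the 3, 1 passed the filter on low values only through its hairpin 1 libraries. Adora2a, an adenosine receptor, had 18.4 and 16.5 TPM with hairpin 1, 7.86 and 7.87 TPM with hairpin 2, and 11 and 9.90 TPM in shNT. Hairpin 1 libraries were above shNT and hairpin 2 libraries below it. Adora2a rose by 0.69 ± 0.08 (log2, SE) with hairpin 1, limma adjusted p = 0.00142, and hairpin 2 minus hairpin 1 was -1.06, limma adjusted p = 0.000581. Its fall by 0.37 with hairpin 2 (limma adjusted p = 0.0445) was lost, at up to 0.204, without shNT replicate 1 or any 1 of the 4 hairpin libraries, in a range of 0.0221 to 0.204.

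Of 16 other G protein genes tested, 7 rose and 2 fell with hairpin 1, against 32.1% higher and 18.1% lower of all tested genes. Gnb4, 1 of the 2 that fell, differed by -0.45 with hairpin 1 (limma adjusted p = 0.0118) and lost its call in 1 of 16 alternatives. Gnai1, the alpha subunit of an inhibitory G protein that opposes Gs at the cyclases, had 21.5 and 21.3 TPM with hairpin 1, 8.44 and 8.61 TPM with hairpin 2, and 9.25 and 8.66 TPM in shNT. Only the hairpin 1 libraries stood apart, and Gnai1 rose by 1.17 ± 0.05 (log2, SE), limma adjusted p = 0.000123. Arrb1, a beta-arrestin that uncouples receptors from G proteins, had 16.6 and 16.2 TPM with hairpin 1, 7.84 and 8.02 TPM with hairpin 2, and 7.35 and 7.70 TPM in shNT, and rose by 1.03 with hairpin 1 (limma adjusted p = 0.000173). Gnb2, a beta subunit, had 414 and 436 TPM with hairpin 1, 330.1 and 337 TPM with hairpin 2, and 256 and 268 TPM in shNT. It rose by 0.70 with hairpin 1 (limma adjusted p = 0.000475), and by 0.35 with hairpin 2 (limma adjusted p = 0.0256), the second being lost on leaving out any 1 hairpin library (at up to 0.166, in a range of 0.00678 to 0.174). The hairpin 1 rises of Gnai1, Arrb1 and Gnb2 passed under all 17 alternatives.

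Around PKA itself, Pkig, a small inhibitor of the catalytic subunit, had 18.9 and 21.2 TPM with hairpin 1, 26 and 27.8 TPM with hairpin 2, and 28.1 and 26.5 TPM in shNT. It fell by 0.43 ± 0.07 (log2, SE) with hairpin 1, limma adjusted p = 0.00548. Pkig lies on chromosome 2, and after chromosome centring the difference was -0.15, limma adjusted p = 0.173, in a range of 0.00161 to 0.173. Of 12 AKAP anchors tested, 3 rose and 1 fell with hairpin 1, against 32.1% higher and 18.1% lower of all tested genes. Akap2, the 1 that fell, differed by -0.25 (limma adjusted p = 0.0269) and lost its call in 4 of 17 alternatives. Akap7 had 5.54 and 6.15 TPM with hairpin 1, 3.0 and 2.96 TPM with hairpin 2, and 2.35 and 2.43 TPM in shNT, and rose by 1.01 with hairpin 1 (limma adjusted p = 0.000517). Akap8l, an anchor of the nucleus, rose by 0.51 with hairpin 1 (limma adjusted p = 0.00120). Of 5 genes of cAMP breakdown and export tested, limma called 0 with either hairpin, against 50.2% of all tested genes with hairpin 1 and 9.63% with hairpin 2. After median-ratio scaling 3 were lower with hairpin 1, against 23.2% of all tested genes. Pde4d, a cAMP phosphodiesterase, differed from shNT by -0.14 with hairpin 1 (limma adjusted p = 0.141), while its hairpin 2 difference was -0.12 (limma adjusted p = 0.285).

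Downstream, Crebbp was the largest change among 10 genes of the CREB family, its coactivators and kinases. Of these 10, 3 rose and 1 fell with hairpin 1, against 32.1% higher and 18.1% lower of all tested genes. Crebbp, a histone acetyltransferase recruited by CREB, had 8.85 and 8.28 TPM with hairpin 1, 13.5 and 12.5 TPM with hairpin 2, and 13.8 and 13.0 TPM in shNT. It fell by 0.59 ± 0.07 (log2, SE) with hairpin 1, limma adjusted p = 0.00150, on a chromosome whose median stood at -0.21, and by 0.37 after chromosome centring (limma adjusted p = 0.00820, in a range of 0.000600 to 0.0159). The 3 that rose, Stk11, Crtc2 and Atf1, were not called under median-ratio scaling (limma adjusted p = 0.300, 0.138 and 0.218), and without the small-RNA entries Stk11 (-0.033) and Atf1 (-0.00259) turned negative. Of 13 genes known as cAMP-CREB targets, 2 rose and 3 fell with hairpin 1, against 32.1% higher and 18.1% lower of all tested genes. The 2 that rose were Areg, by 0.28 (limma adjusted p = 0.00390), and Per1, by 0.42 (limma adjusted p = 0.0153). Areg lost its call in 2 of 17 alternatives and Per1 in 3 of 16. Dusp1, a MAP kinase phosphatase, had 6.88 and 6.02 TPM with hairpin 1, 14.2 and 14.2 TPM with hairpin 2, and 11.3 and 12.7 TPM in shNT. It fell by 0.81 with hairpin 1 (limma adjusted p = 0.00110), and hairpin 2 minus hairpin 1 was 1.03 (limma adjusted p = 0.000742). Junb, an AP-1 subunit, fell by 0.46 with hairpin 1 (limma adjusted p = 0.00447). Stc1, a secreted glycoprotein, had 0.484 and 0.508 TPM with hairpin 1, 0.979 and 1.00 TPM with hairpin 2, and 1.95 and 1.98 TPM in shNT. It is 1 of the 3 that fell, and it passed the filter on low values through both shNT libraries and 1 hairpin 2 library, so no test value is given for it. Many of these targets answer to other pathways as well.

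For Gnas, Adcy6 and Sik1, whose group means spanned the widest range among the 9 genes, the closest profiles over the 6 libraries were sought among 10642 genes, by the sum of squared differences of centred log2(TPM + 1) values. Nearest to Gnas, at 0.00107 against the 0.0770 that Gnas itself varied by, was Nufip1, which had 10.2 and 10.3 TPM with hairpin 1, 11.9 and 11.9 TPM with hairpin 2, and 13.0 and 12.1 TPM in shNT. Unc5b (0.00262) and Lrch3 (0.00296) followed. Nearest to Adcy6 were Tpgs2 (0.00226), Snrnp70 (0.00235) and Nfyb (0.00263), against 0.0756 for Adcy6 itself. Snrnp70 had 211 and 210.1 TPM with hairpin 1, 199.8 and 201 TPM with hairpin 2, and 166 and 179 TPM in shNT. Nearest to Sik1 were Notch1 (0.00282), Ubr4 (0.00361) and Bptf (0.00386), against 0.0870 for Sik1 itself. Likeness over 6 libraries of 3 groups is a description of these libraries.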

How the data were processed

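RNA abundance was measured in 6 libraries, 2 for each of 3 groups taken from the sample titles. The authors deposited TPM per gene (transcript abundance scaled to a total of 1000000) for 24493 genes. The submitters' processing notes name Salmon, R 3.5, DESeq2 and the mm10 build; what each did is not given in the sources used here. Depth is unknown, so no counting interval is given. The 10 genes and the pathway lists were chosen with earlier results of these data known.

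TPM were used as deposited. For testing, a gene had to reach 1 TPM in 2 or more libraries, and 11549 genes did. limma 3.58.1 in R 4.3.3 was fitted to log2(TPM + 1) with 3 group means over all 6 libraries and a variance prior following mean expression; p-values were adjusted over all tested genes by Benjamini-Hochberg at 0.05. The model was also run on simulated data with independent noise for each gene and few changed genes. Its outcome is not reported here. Many more genes were called in these data, so that run does not bear on the calls made here. For both hairpins vs shNT, the hairpin group means were averaged first. The 17 alternatives changed the pseudocount, filter, scaling, variance prior or model, or left out each library; scalings included median-ratio, quantile, removal of 1283 small-RNA entries and centring of each chromosome on its median. Chromosomes came from GENCODE M21 for 98.5% of tested genes.

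Named genes were the 10 genes, Pthlh, up to 4 tested genes per pathway list with the smallest p in each hairpin comparison, and the 3 nearest profiles of the 3 tested genes with the widest range of group means; of those from the lists, some are printed, chosen after their values were seen, and some are not reported here. Replicate numbers did not pair the libraries: deviations of same-numbered libraries correlated at -0.0439 to 0.0211.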

Additional observations from a re-analysis of the deposited data

How the results depend on the processing

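The number of the 9 genes called with hairpin 1 was 1 without small-RNA entries, against 3 in deposited TPM, 2 after chromosome centring (Adcy9 and Sik1, neither of them among the 3), and 0 to 4 with each library left out in turn. With hairpin 2 it was 0, or 1 when a mean TPM of at least 5 was required, and 0 to 2 with each library left out. For both hairpins it was 3, but 1 without small-RNA entries, 0 after chromosome centring (5 genes at an unadjusted p below 0.05), 0 with both hairpins pooled as 1 group (2 at an unadjusted p below 0.05), and 1 to 3 with each library left out. Between hairpins limma called 0, but 1 with a replicate block, 2 with only the groups compared, and 0 to 2 with each library left out. Over all tested genes, the hairpin 1 count was 5798 of 11549 in deposited TPM. It was 4532 of 11620 once small-RNA entries were removed and 4645 of 11380 after chromosome centring. Between hairpins the all-gene count of 4626 was 4200 with the replicate block and 5656 with only the groups compared. The all-gene hairpin 2 count of 1112 was 585 without a filter and 729 after quantile normalization. It was 521 when small-RNA entries were removed, 522 after chromosome centring, 276 with the replicate block and 98 with only the groups compared. With a mean TPM of at least 5 required, it was 1198 of 8706. Changes in count among the 9 genes were not tested against those over all genes. For both hairpins the count of 4550 was 2909 without small-RNA entries, 2986 after chromosome centring and 1 with the hairpins pooled. How many of all tested genes had an unadjusted p below 0.05 was not counted in any setting. With each library left out in turn, the counts over all genes ranged from 3749 to 6181 for hairpin 1, 6 to 2653 for hairpin 2, 2727 to 4893 for both hairpins and 2374 to 5677 between hairpins. Among called differences, directions turned for Gnas with hairpin 1 after chromosome centring (0.018), for Stk11 with hairpin 1 without small-RNA entries (-0.033) and after chromosome centring (-0.049), and for Atf1 with hairpin 1 without small-RNA entries (-0.00259). The replicate block also took the limma adjusted p of Gnas for both hairpins to 0.0688, although replicate numbers did not pair the libraries. The cause of these differences was not tested, except that leaving out a library leaves fewer samples. Depth limits cannot be stated from TPM, and 2 libraries a group limit every estimate of the spread.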
